A study of Neurospora crassa with 10 samples.

Results

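Of the 9866 genes in the deposited annotation of Neurospora crassa assembly nc14, 9730 are protein-coding, and 5 of these are the genes described here. They were taken by their gene number as the central genes of the circadian clock and of the response to blue light: frq (NCU02265), wc-1 (NCU02356), wc-2 (NCU00902), vvd (NCU03967) and frh (NCU03363). All 5 numbers were found, each with exon, coding sequence, start codon and stop codon records, and none was chosen by its values.

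The Neurospora clock is a feedback loop. WC-1, a zinc finger transcription factor that is also a blue-light photoreceptor, and its partner WC-2 form the White Collar Complex, which activates frq. The product FRQ binds FRH, an RNA helicase related to yeast Mtr4, and represses the complex that activated it. Light acts on the same complex, which switches on many genes, among them vvd. VVD is a small flavin-binding photoreceptor that damps the response of the White Collar Complex as light continues.

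The libraries of the study were made by in situ Hi-C, which records contacts between distant pieces of DNA, from unsynchronized germinated conidia of the wild type strains N150 and N3752 (stocks of 1 strain, propagated apart), all crosslinked with formaldehyde, with no mutant compared. The labels describe 10 datasets: 4 cut with DpnII (8, 15 or 23 PCR cycles), 2 cut with MseI (8 cycles), 2 cut with both enzymes, and 1 merged dataset for each single enzyme. The processed file used here is the gene annotation of nc14, the assembly that the authors corrected with these contacts. It gives first and last bases in bp and holds no value per library, so neither depth nor replicate error applies, and each gene was placed by its rank among all protein-coding genes, with no test. The transcripts are annotated models, and their levels, and the growth conditions in which each is made, were not analysed here.

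The 5 genes lie on 4 of the 7 linkage groups (LGs) of nc14. frq runs from 3131640 to 3136464 of LG VII on the plus strand (4825 bp), and wc-1 from 2767393 to 2773846 of the same LG and strand (6454 bp). Between them lie 357793 bp with 96 genes, all protein-coding. The partner of WC-1 is encoded elsewhere, with wc-2 from 7004398 to 7008005 of LG I on the minus strand (3608 bp). vvd spans 2363438 to 2366717 of LG VI on the plus strand (3280 bp), and frh spans 964247 to 968587 of LG II on the minus strand (4341 bp). The gene span had a median of 2129 bp over all protein-coding genes, and all 5 genes were longer than that. In the highest 10% by span (a value as high or higher in at most 10% of genes, which 9.99% of genes met) were 3 of the 5, namely wc-1, frq and frh.

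The 5′ untranslated region (5′ UTR), the part of the mature transcript before the start codon, was long in 4 of the 5 genes. The transcript used for each gene was that with the longest coding sequence and, among equals, the most exon bases. This tie rule favors long UTRs, and it decided the choice in wc-1 and frq. In the transcript used the 5′ UTR had 1757 bases in wc-1, 1635 in vvd, 1056 in wc-2 and 1055 in frq, while frh had 336. The median over all protein-coding genes was 231 bases. All but frh thus reached 1000 bases, as did 4.35% of protein-coding genes, and these 4 were in the highest 10% by 5′ UTR length, as were 9.98% of all genes. Only 0.473% of genes had a 5′ UTR as long as that of wc-1 or longer, and 0.576% one as long as that of vvd. wc-2 (3.56%) and frq (3.57%) differed from each other by a single base. The helicase gene frh ranked near the middle, with 36.5% of genes as high or higher.

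**Figure D1:**
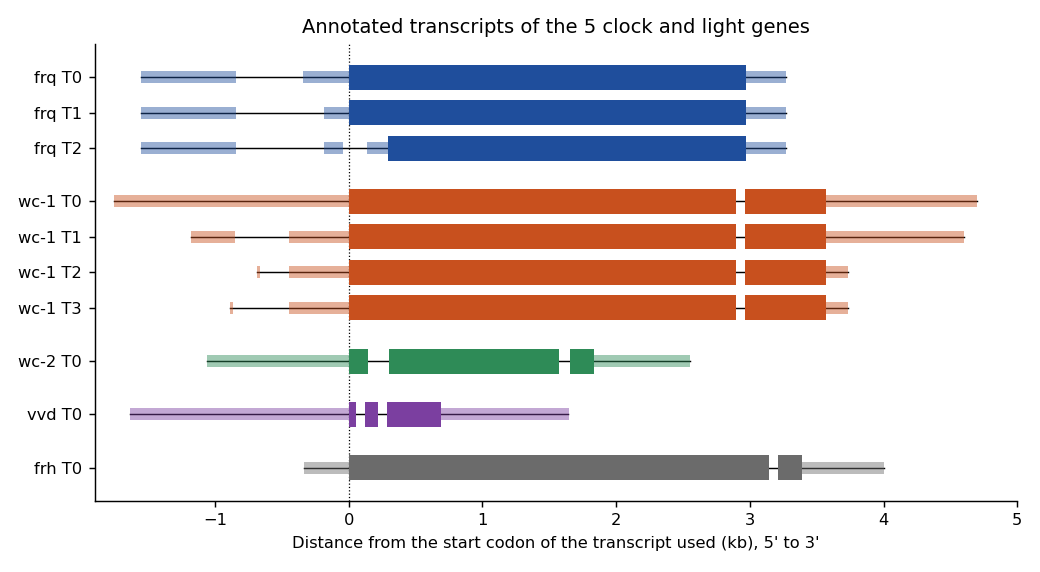
Exon and intron structure of the 10 annotated transcripts, with the distance in kb from the start codon of the transcript with the longest coding sequence on the x axis (5′ to 3′) and 1 transcript per row. Thick bars are coding sequence, thin pale bars are UTR and lines are introns. The long 5′ UTRs of wc-1 T0 (1757 bases) and vvd (1635 bases) stand beside the short one of frh (336 bases), and in frq T2 an intron covers the start codon that T0 and T1 use.

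Not every gene has an annotated UTR. A 5′ UTR is annotated for 78.3% of protein-coding genes and for each of the 5, as is a 3′ UTR, which 79.9% of genes have. Among the 7622 genes that have one, the shares as high or higher were 0.604% for wc-1, 0.735% for vvd, 4.54% for wc-2, 4.55% for frq and 46.6% for frh. All 5 genes carry a symbol in the RefSeq table, as do 1118 (11.5%) of protein-coding genes. Genes with a symbol had a median 5′ UTR of 340 bases, against 231 over all protein-coding genes, and 7.69% of them reached 1000 bases. Ranked among these genes alone, wc-1 (0.894%), vvd (1.07%), wc-2 (6.53%) and frq (6.62%) kept a place in the highest 10%, and 50.7% had a 5′ UTR as long as that of frh or longer. The part that annotation effort has in these lengths was not tested.

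The frq gene, the negative element of the loop, has 3 annotated transcripts, a number that 2 of the 5 (frq and wc-1), 1.35% of protein-coding genes and 2.59% of those with a symbol reach. All 3 begin at 3131640 and end at 3136464, and their first exon of 712 bases is the same. They differ in what is removed before the coding sequence. In T0 the first intron runs from 3132352 to 3132849 (498 bp), whereas in T1 and T2 it starts at the same base but ends at 3133006 (655 bp), so that T1 has a 5′ UTR of 898 bases against 1055 in T0. T2 has a second intron from 3133148 to 3133332 (185 bp). This intron holds the start codon of T0 and T1, whose first base is 3133193. The coding sequence of T2 begins instead at 3133490, which is 297 bases further on in the same frame, and its 5′ UTR has 1010 bases.

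The coding sequence is therefore 2967 bases (989 codons, the stop codon not counted) in T0 and T1 and 2670 bases (890 codons) in T2, a difference of 99 codons at the amino end. FRQ is known to occur in a long and a short form that arise from splicing at the first start codon, in a proportion that depends on temperature. A start codon that lies inside an intron of another transcript was annotated in 97 protein-coding genes (0.997%), frq among them. In 41 of the 97 the intron lies wholly in the 5′ UTR of the transcript that has it, as in frq. Of the 5 clock and light genes frq alone has more than 1 start codon, as have 2.46% of genes, and frq alone has more than 1 coding sequence, as have 4.82%. Among the 131 genes with 3 or more transcripts, 31 (23.7%) share 1 first base and 1 last base across all transcripts, as frq does.

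All 3 introns of frq lie in the 5′ UTR of the transcripts that have them, although that of 185 bp covers coding bases of T0 and T1. No frq transcript has an intron within its coding sequence, whereas the other 4 of the 5 and 77.8% of protein-coding genes have an intron there. The frq introns of 498 and 655 bp are long for this genome. Over the 1645 distinct introns of 5′ UTRs the median was 108 bp, and 5.78% were as long as the intron of 498 bp, 2.92% as long as that of 655 bp and 30.2% as long as that of 185 bp. Taking the longest intron over all transcripts of a gene, 1.44% of protein-coding genes had one of 655 bp or more.

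The photoreceptor gene wc-1 varies in another way. Its 4 transcripts, a number reached by 23 protein-coding genes (0.236%), all carry the same coding sequence of 3501 bases (1167 codons) from 2769150, interrupted by 1 intron of 67 bp. Several transcripts with a single coding sequence were annotated in 4.41% of genes, and in wc-1 alone of the 5. The messages of wc-1 differ at both ends, with more than 1 first base (5.20% of genes, and of the 5 only wc-1) and more than 1 last base (3.95%, and again only wc-1). T0 begins at 2767393, T1 at 2767975, T3 at 2768261 and T2 at 2768464, so that the first bases span 1071 bp. T0 reads through the 5′ UTR without an intron, in a first exon of 4655 bases that 0.256% of first exons reach in transcripts with more than 1 exon. The others are each spliced once in the 5′ UTR to the same base, 2768705, by introns of 403 bp (T1), 420 bp (T3) and 217 bp (T2). The 5′ UTR has 1757 bases in T0, 772 in T1 and 469 in both T2 and T3, and only the first of these lengths sets the rank of wc-1 given above. Taking the shortest 5′ UTR of each gene, 22.9% of genes were as long as wc-1 or longer.

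T2 and T3 open with a first exon of only 24 bases, a length that 1.36% of the 8972 first exons have or fall below, against a median of 438 bases. The last base also varies, with T0 and T1 ending 93 bp apart and T2 and T3 ending together, 960 bp before T0. The 3′ UTR accordingly has 1126 bases in T0, 1033 in T1 and 166 in T2 and T3. Among the 898 genes with 2 or more transcripts, 3.67% had first bases as far apart as wc-1 or farther, and 3.01% had last bases as far apart, with medians of 36.5 bp and 0 bp. Of the 131 genes with 3 or more transcripts, 52 (39.7%) have a single coding sequence throughout, like wc-1, and of the 23 with 4 or more, 9 (39.1%) have. The annotation thus gives wc-1 as 1 protein from 4 messages and frq as 2 proteins from 3.

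More than 1 transcript was annotated for 2 of the 5 genes, frq and wc-1, beside 9.23% of all protein-coding genes and 14.8% of those with a symbol. The other clock and light genes, wc-2, vvd and frh, have 1 transcript each. wc-2, which encodes the DNA-binding partner of WC-1, has 530 codons in 3 exons, split by coding introns of 157 and 86 bp. Its first exon of 1200 bases is mostly 5′ UTR and holds 144 coding bases. frh has 1106 codons in 2 exons and a single intron of 68 bp after coding base 3140, near the end of the coding sequence.

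vvd has the shortest coding sequence of the 5, with 558 bases (186 codons), and 83.6% of genes had one as long or longer. Its coding sequence is cut into pieces of 57, 96 and 408 bases (stop codon included) by introns of 64 and 69 bp. Around this small coding sequence lie 1635 bases of 5′ UTR and 951 of 3′ UTR, so that UTRs made up 82.2% of the mature transcript. The median over all genes was 28.3%, and 0.617% of genes had a share as high or higher. The 5′ UTR of vvd is longer than its coding sequence, as in 4.43% of protein-coding genes and in none of the other 4. Of the 1613 genes with a coding sequence as short as that of vvd or shorter, 5 (0.310%), vvd included, had a 5′ UTR of its length or more.

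**Figure D2:**
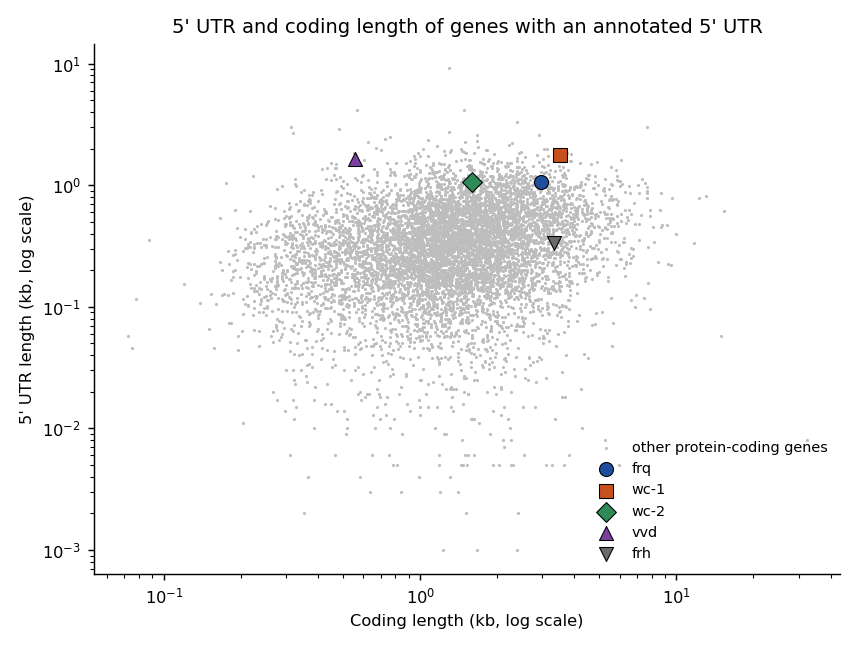
5′ UTR length against coding length, both in kb on log axes, for the 7622 protein-coding genes with an annotated 5′ UTR. Each is from the transcript with the longest coding sequence, ties going to the most exon bases. Small grey points are single genes, and larger marks the 5 clock and light genes. vvd (558 coding and 1635 5′ UTR bases) stands at the upper left and wc-1 (3501 and 1757) at the upper right, while frh (3318 and 336) lies within the cloud.

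Of the other 4 coding sequences, 3 were long. wc-1 (3501 bases), frh (3318) and frq (2967) were in the highest 10% by coding length, which held 10.0% of all genes, and wc-2 with 1590 bases was nearer to the median of 1266. Both a long coding sequence and a long 5′ UTR, each in its highest 10%, were found in frq and wc-1 and in 1.82% of all genes. Ranked among the genes with a symbol alone, none of the 5 was in the highest 10% by coding length.

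At the 3′ end, wc-1 (1126 bases) and vvd (951) were the 2 of 5 in the highest 10% by 3′ UTR length, beside 9.98% of genes, and both were in the highest 10% at both ends, as were 2.22% of genes. wc-2 (716 bases, 11.5% as high or higher) and frh (616, 16.0%) followed, and frq had 302 bases, close to the median of 278. The 5′ UTR was the longer of the 2 in each gene but frh, and in 38.2% of protein-coding genes. With the shortest 3′ UTR of each gene, wc-1 (166 bases) left the highest 10%.

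The transcript used has 1 intron in frq, wc-1 and frh and 2 in wc-2 and vvd, against a median of 1 and a maximum of 16, and 0 of the 5 were in the highest 10% by intron number, which ties limit to 5.29% of genes. Counted over all transcripts, wc-1 has 4 distinct introns (12.9% of genes as high or higher, against 81.6% for its transcript used) and frq has 3 (26.1%, against 81.6%). The coding introns of wc-1 (67 bp), frh (68 bp) and vvd (64 and 69 bp) were shorter than the median of 75.0 bp over the 15919 coding introns, and those of wc-2 (86 and 157 bp) were longer. Only frq was in the highest 10% by total intron length, with 498 bp beside 9.99% of genes. The transcript used has an intron in its 5′ UTR in 1 of the 5, frq, and in 9.60% of genes. Introns in the 5′ UTR of at least 1 transcript were found in 2 of the 5, frq and wc-1, and in 12.8% of protein-coding genes. None of the 5 has an intron in the 3′ UTR, which 3.35% of genes have, and none of the 5 is free of introns, as 18.4% of genes are.

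**Figure D3:**
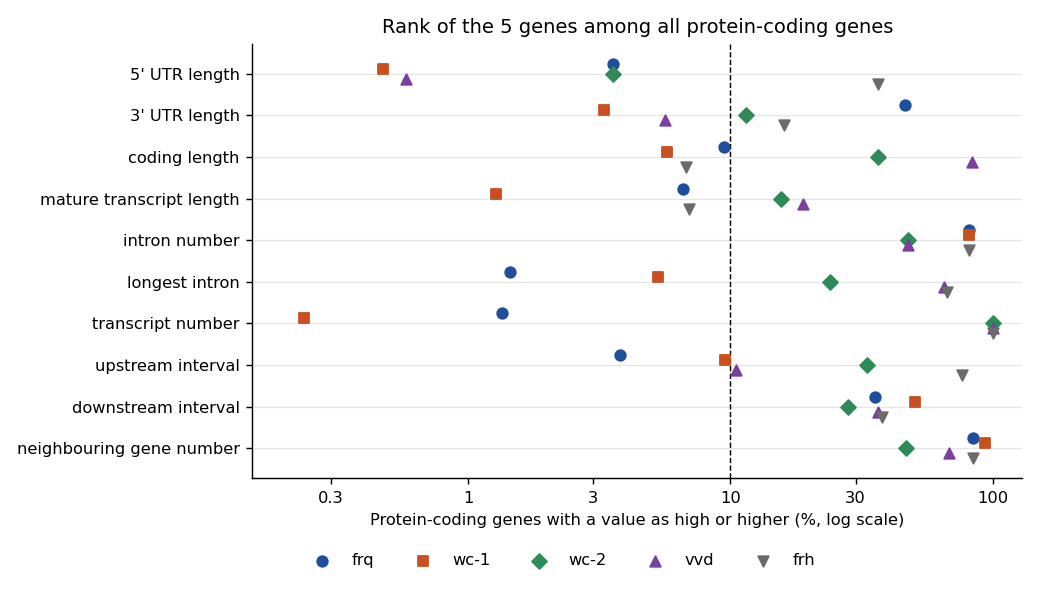
Share of protein-coding genes with a value as high or higher, in percent on a log axis, for 10 measures (rows) and the 5 genes (marks). The dashed line is at 10%. By 5′ UTR length 4 of the 5 genes are left of the line and by downstream interval none, and frh is left of it for coding and mature transcript length. Gene span, by which frh (8.49%) is also in the highest 10%, is not plotted.

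Upstream of the 5′ end, frq has a wide interval without a gene. The distance to the next annotated gene on either strand, the upstream interval, was 7375 bp for frq (3124265 to 3131639 of LG VII), 3728 bp for wc-1 and 3457 bp for vvd, while wc-2 had 1343 bp and frh 297 bp. Over the 9726 protein-coding genes with a neighbor on that side the median was 778 bp. In the highest 10% were 2 of the 5, frq (3.79% as high or higher) and wc-1 (9.50%), beside 9.98% of genes, and vvd fell just outside with 10.5%. Control sequences for light and the clock are known in the DNA before frq, with the White Collar Complex binding there, and sequence was not analysed here. Both a long upstream interval and a long 5′ UTR were found in frq and wc-1 and in 1.73% of genes. From the start codon itself to the neighboring gene there were 8928 bp for frq, 5485 for wc-1, 5092 for vvd, 2399 for wc-2 and 633 for frh, against a median of 1127 bp.

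These ranks depend on which neighbors count. With coding limits in place of gene edges, which leaves UTRs out on both sides, the upstream intervals were 9183 bp for frq, 5876 for wc-1, 5724 for vvd, 2656 for wc-2 and 804 for frh, and frq, wc-1 and vvd were in the highest 10%. With neighbors on the same strand alone, none of the 5 was in it, and 22.6% of genes had an interval as long as that of frq.

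**Figure D4:**
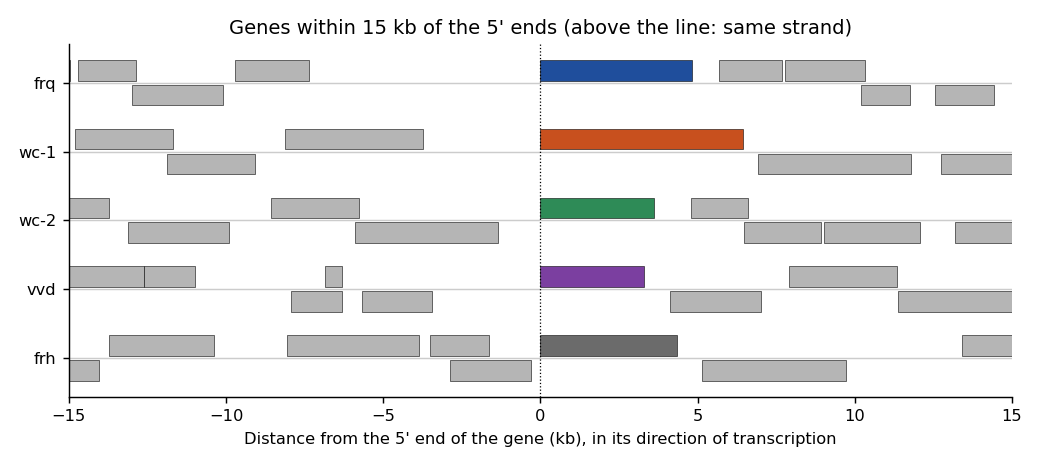
Genes within 15 kb of the 5′ end of each clock or light gene, with the distance in kb on the x axis in the direction of its transcription. Colored bars are the 5 genes and grey bars the other genes, above the line on the same strand and below it on the opposite strand, cut at the limits of the plot. The empty stretch left of frq is 7375 bp long and that left of frh 297 bp.

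The neighbors differ in their direction. The upstream neighbor is transcribed away from the gene (divergent) in 3 of the 5, wc-2, vvd and frh, and in 55.4% of all protein-coding genes. wc-2 shares its 1343 bp with uvs-6 (NCU00901, 7009349 to 7013899), a gene of DNA repair related to RAD50. frh shares its 297 bp with NCU03362 (968885 to 971452), and 26.1% of divergent intervals were as short or shorter, with a median of 752 bp. The divergent neighbor of vvd is NCU03968 (2357749 to 2359980). frq and wc-1 follow a gene of their own strand, NCU02267 (3121921 to 3124264) and NCU02357 (2759269 to 2763664), and 3.89% and 9.75% of such intervals were as long or longer.

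Downstream, the intervals were 1187 bp for wc-2 (before NCU00903), 868 for frq (NCU02264), 837 for vvd (NCU03966), 794 for frh (NCU03364) and 454 for wc-1 (NCU02355). The median was 473 bp, and 0 of the 5 were in the highest 10%, beside 10.0% of genes. The downstream neighbor is convergent for wc-1, vvd and frh, 3 of the 5 beside 55.4% of genes. None of the 5 overlaps another annotated gene, whereas 22.9% of protein-coding genes do. An antisense RNA of frq is known by the name qrf, and this annotation has no gene model on the other strand there, which does not show whether such RNA is made. The upstream intervals are also free of genes in the order of the older assembly NC12. Downstream, NC12 lists the tRNA gene NCU15393 between vvd and NCU03966 and the rRNA gene NCU15661 between frh and NCU03364, and neither is in this annotation, so these 2 downstream intervals are free of its own genes only.

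The number of genes around the 5 was near or below the median. Within 10 kb of each lie 7 (wc-2), 6 (vvd), 5 (frq and frh) and 4 (wc-1) other genes, against a median of 6, and 0 of the 5 were in the highest 10% by this number, which ties limit to 2.86% of genes. Genes covered 74.6% of the bases within 10 kb of wc-2, 69.6% at wc-1, 64.7% at frh, 60.5% at vvd and 50.8% at frq, with a median of 65.1%, and 22.9% of genes had a coverage as low as that at frq or lower. The nearest interval of at least 10 kb without a gene was 14388 bp away from wc-2, 23712 from wc-1, 80644 from frh, 199351 from frq and 307880 from vvd. The median was 56678 bp, and 3.57% of genes were as far from such an interval as vvd or farther. With each LG taken to run from its first base to the end of its last annotated gene, its nearer end was between 964246 bp (frh) and 2953045 bp (wc-2) away.

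Toward the longest gene-free interval of their LG the distances were 185934 bp for frh, 284489 for wc-1, 359270 for wc-2, 402909 for vvd and 648736 for frq, all below the median of 1589432 bp. As close as frh or closer were 6.35% of genes, and as close as wc-1 10.1%. The median and these shares pool LGs of unlike length, with the last gene ending at 9961050 on LG I and 4162424 on LG VI. Ranks within an LG were not made for this distance, so the part of LG length in them was not tested. The interval of LG VII, between 2135114 and 2482903, lies to the left of both wc-1 and frq, and wc-1 is the nearer of the pair.

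Set against the older assembly, vvd alone of the 5 has its surroundings turned around. It lies in a run of 238 protein-coding genes of LG VI, from NCU09868 to NCU03846 (1851685 to 2769626), whose order is the reverse of that in NC12. It is number 135 of the 238, with 511753 bp to the left limit and 402909 bp to the right limit, where the longest gene-free interval of LG VI begins. The study's text says that the name nc14 allows for a correction made earlier to LG VI, the LG that holds this run. Its part in the order seen here was not tested. Its neighbors NCU03968 and NCU03966 are the same in both assemblies, with left and right exchanged. The other 4 genes have the same neighbors in the same order. Each of the 5 has the same length in the RefSeq table of NC12 as in nc14, as have all 9729 protein-coding genes found in both, and the table lists the same numbers of transcripts, 3 for frq, 4 for wc-1 and 1 for each of the others.

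Other genes of the clock and of light responses were set beside these 5. Of 40 listed symbols, 38 were paired with 1 protein-coding gene, and prd-1 and vos-1 were not. The 38 genes had a median 5′ UTR of 460 bases, against 1056 for the 5 genes, 340 for all genes with a symbol and 231 for all protein-coding genes, and 11 of the 38 (28.9%) were in the highest 10%, beside 9.98% of all genes. The longest were those of ck-1b, a casein kinase 1 gene (1956 bases), of phy-1, a phytochrome (1844), of cry, a cryptochrome (1338), and of ccg-9, a clock-controlled gene (1332). They were followed by al-2 of carotenoid synthesis (1100) and the hydrophobin gene eas (1021). These 6 of the 38 (15.8%) reached 1000 bases, as did 4.35% of all genes and 7.69% of those with a symbol. The share of genes with a symbol that are in the highest 10% was not computed. Of these 6, ck-1b and cry have an upstream interval of 0 bp and al-2 one of 11 bp. phy-1 (3391 bp), ccg-9 (2963) and eas (5715) have longer ones. The 4 genes of the clock and light group with long 5′ UTRs have 1343 bp or more.

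The 38 genes had a median upstream interval of 1614 bp, against 822 bp for genes with a symbol and 778 bp for all protein-coding genes. By this interval 10 of the 38 (26.3%) were in the highest 10%, beside 9.98% of all genes. Among genes with a symbol, 10.8% had one as long as the 3728 bp of wc-1 or longer. By class the 10 were 5 of 5 transcription factors, 2 of 12 kinases and other clock proteins, 1 of 5 photoreceptors and 2 of 16 outputs. The 5 transcription factors had 17383 bp for sah-1, 11583 for csp-1, 9013 for adv-1, 8657 for sub-1 and 6178 for bek-1. vos-1, listed in the same class, was not paired with a gene and has no value. Transcription factor genes outside the list were not compared. al-3, the geranylgeranyl diphosphate synthase gene of carotenoid synthesis, had 33473 bp, the opsin gene nop-1 had 27790 bp and ck-1a, the casein kinase 1 that phosphorylates FRQ, had 9489 bp. The remaining 2 were eas (5715 bp) and ckb-1, a regulatory subunit of casein kinase 2 (4551 bp). The interval of frq is thus shorter than those of 7 genes of the list, and that of wc-1 shorter than those of all 10.

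By gene span 8 of the 38 (21.1%) were in the highest 10%, beside 9.99% of all genes. All 38 carry a symbol, and genes with a symbol are longer. Of those genes, 16.1% had the span of frh (4341 bp, itself in the highest 10%) or more. The median span of the 38 was 2398 bp, above the 2129 bp of all protein-coding genes but below the 2731 bp of those with a symbol. More than 1 transcript was annotated for 4 of the 38 (10.5%), beside 9.23% of all genes, and these were ck-1a with 3 and ck-1b, rcm-1 and sub-1 with 2 each. None of the 38 has more than 1 start codon as frq does, nor as many transcripts as wc-1. Both are rare, found in 2.46% and 0.236% of all protein-coding genes. By coding length 4 of the 38 (10.5%) and by 3′ UTR length 5 (13.2%) were in the highest 10%, beside 10.0% and 9.98% of all genes. Their median coding length was 1311 bases, against 1557 for genes with a symbol and 1266 for all protein-coding genes. An intron in the 5′ UTR of at least 1 transcript was found in 10 (26.3%), beside 12.8% of all genes and 19.1% of those with a symbol. Overlap with another gene, absent from the 5 clock and light genes, was annotated for 8 (21.1%), beside 22.9% of all genes.

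**Figure D5:**
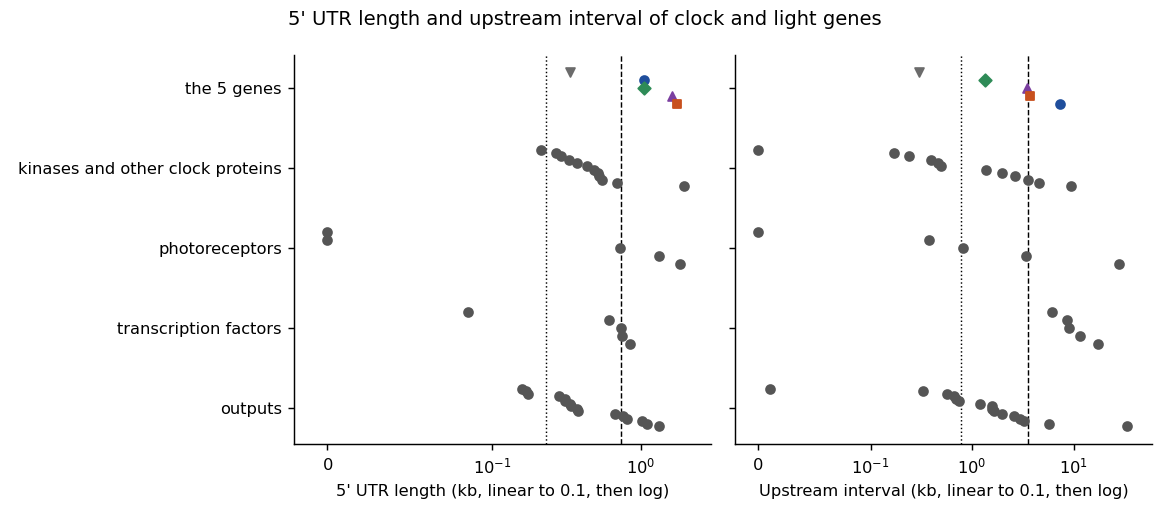
5′ UTR length (left) and upstream interval (right), in kb on an axis that is linear near 0 and log above, for the 5 clock and light genes (colored marks as in the plot of ranks) and the 38 other genes in 4 classes (1 grey point per gene). The dotted line is the median of all protein-coding genes and the dashed line the lowest value of the highest 10%. All 5 plotted transcription factors (vos-1 had no paired gene) are right of the dashed line by upstream interval, and frh is left of it in both panels.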

How the data were processed

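The authors mapped Hi-C reads with Bowtie2 (version 2.3) and built nc14 by placing supercontigs in LG I and LG V, after an earlier correction of LG VI. For its gene models, the tool was not given in the sources used here. The 1 file used, a deposited annotation of 81158 records, lists where features begin and end in bp, numbered from 1, with no normalization and 0 columns of single samples. Gene span covered all features of a gene number. UTRs were the exon bases outside the coding sequence, stop codon included in it, of the transcript with the longest coding sequence. Ties went to the longest summed exons, then to the lowest transcript number. Intervals ran to the nearest gene edge. Symbols and gene order came from the RefSeq table of NC12, and no NC12 position was used. Ranks are shares of protein-coding genes with a value as high or higher, given as descriptions.

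Python 3.11.15, numpy 2.4.6, scipy 1.17.1 and matplotlib 3.10.9 were used. Tested on simulated data, UTR and coding lengths, introns, gene span and intervals to neighbors were recovered in 200 of 200 simulations of 12 genes. Transcript number, the choice among transcripts, overlaps and ranks were not tested in this way. The 5 genes and the 40 symbols of the wider list were chosen for known roles, with earlier results of these data known. Named were the 5 genes and their neighbors. Listed genes were named for a 5′ UTR of 1000 bases or more, or for the highest 10% by upstream interval or transcript number. Alternatives were other transcripts, neighbors and windows, and the same LG. Genes with a symbol, and genes with both UTRs, were added as pools after the values were seen.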

Additional observations from a re-analysis of the deposited data

How the results depend on the processing

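No paired analysis was possible because no value here belongs to a library. The number of the 5 genes in the highest 10% stayed within 1.5 times its value in 43 of 50 combinations of a measure and an alternative, but in 16 of the 43 it was 0 under both settings. The share of genes as high or higher moved beyond its 95% binomial interval in 170 of 250 combinations for a single gene. That interval served only as a yardstick, since a rank over all genes has no sampling error, and small moves count too. With the shortest 5′ UTR of each gene, the share moved from 3.56% to 3.16% for wc-2 and from 0.473% to 22.9% for wc-1. Among genes with both UTRs alone, frh left the highest 10% by gene span (10.2%) and frq by coding length (10.6%), so that each count was 2 in place of 3. Among genes with a symbol alone, it was 1 by gene span (3 among all genes), 0 by coding length (3), 0 by intron length (1) and 1 by upstream interval (2). It was 1 by 3′ UTR length with the shortest 3′ UTR of each gene (2), 1 by number of distinct coding sequences in place of transcripts (2), and 0 by upstream interval to neighbors on the same strand (2). By 5′ UTR length it was 4, or 3 with the shortest 5′ UTR of each gene. The causes were not tested. Lengths rest on annotated models, so a UTR or transcript that is not annotated changes a rank without a sign in the file.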
